A study of Mus musculus with 7 samples.

Results

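Chemokines, interleukins, colony-stimulating factors and members of the TNF family, with the receptors that bind them, were compared between 2 fat depots of the mouse. Genes were taken by symbol: Ccl, Cxcl, Xcl, Ccr, Cxcr and Il followed by a digit, Cx3c, Ackr, Tnf, Tnfsf, Tnfrsf and Csf. Of 9294 genes measured, 58 matched, 19 ligands and 39 receptors. The rule itself uses no measured value. The ligands were 12 chemokines, 5 interleukins, 1 TNF family ligand (Tnfsf14) and 1 colony-stimulating factor (Csf1). The receptors were 11 of the chemokine family, 18 of the interleukin family, 8 of the TNF family and 2 of colony-stimulating factors. A further 7 probes list a gene of these families together with other symbols, those of Ccl19, Ccl21a, Ccl21b, Ccl27a, Il11ra2, Ackr3, Tnfsf12 and Tnfsf13 among them, and were not analysed here.

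Total RNA came from wild-type male mice of strain C57, taken straight from the animals into lysis buffer, and was hybridised to Affymetrix arrays. Paracardial fat, the fat beside the heart (labelled pCF), is represented by 4 arrays and intra-abdominal fat (labelled iVF) by 3 arrays. No treatment or allele is named for either depot, and neither age nor whether each array was a mouse of its own is stated in the labels, which call the samples biological replicates. P-values therefore measure the spread between these samples. Every value below is a log2 expression value per gene as deposited, and every difference is paracardial minus intra-abdominal on that scale.

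Chemokines are small secreted proteins that steer white blood cells along gradients by binding G protein-coupled receptors. Interleukins and colony-stimulating factors bind receptor chains that mostly signal through JAK kinases and STAT transcription factors. Those of the interleukin-1 and TNF families act largely through NF-kB. In fat these signals are known for bringing in and maintaining macrophages and lymphocytes, while CXCR4, CCR7 and CCR4 are also known as receptors of developing and recirculating T cells.

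Array medians ran from 5.99 to 6.37. The topmost value was higher (19.93) and the 5th percentile lower on array 4 of paracardial and array 3 of intra-abdominal fat than on the remaining 5 arrays, and results are also given within each of these sets of arrays. None of the 58 genes lay at the ceiling on any array. Of the adipocyte markers listed, 9 of 12 were measured, and their mean level was 6.0, 6.19, 9.52 and 10.19 on the paracardial arrays (1 to 4 in that order, as in all lists below) against 14.23, 14.72 and 15.82 on the intra-abdominal arrays (1 to 3). Adipoq, which encodes the adipocyte hormone adiponectin, read 5.18 and 5.53 on paracardial arrays 1 and 2, so these markers were low in the tissue labelled as fat there. On the same arrays the thymocyte markers (5 of 10 measured) had mean levels of 10.4 to 12.9 in paracardial and 7.29 to 9.84 in intra-abdominal fat. In bulk tissue, fewer cells of a type and less RNA per cell cannot be told apart.

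Of the 58 genes, 3 were higher in paracardial fat and none was lower at a limma adjusted p under 0.05, where 9.16% of all genes passed in either direction. They were the chemokine Ccl17 and the chemokine receptors Ccr7 and Cxcr4, which make 5.17% of the 58, a share under that background. In the paracardial direction 6.25% of all genes passed and in the other 2.91%. At an unadjusted p under 0.05 there were 10 with a positive and 7 with a negative difference, where 16.1% and 8.31% of all genes met that rule. The depots did not overlap in 24 of the 58, 15 with all paracardial values above and 9 with all below, and over all genes in 26.7% (18.0% above and 8.78% below). The median difference of the 58 was 0.11 against 0.13 over all genes, and the differences ran from -2.42 (Csf1r) to 5.02 (Cxcr4). Of all genes passing, 581 were higher and 270 lower, a split that became 432 and 416 after quantile normalization was applied again, 512 and 530 after cyclic loess and 573 and 340 after centring on array medians. The split of the 58 became 2 higher (Cxcr4 and Ccr4) and 1 lower (Il1r1) after quantile normalization, and 1 higher (Cxcr4) and 2 lower (Il1r1 and Csf1r) after cyclic loess. A difference of at least 1 in size was found for 18 of the 58, 9 in each direction.

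**Figure D1:**
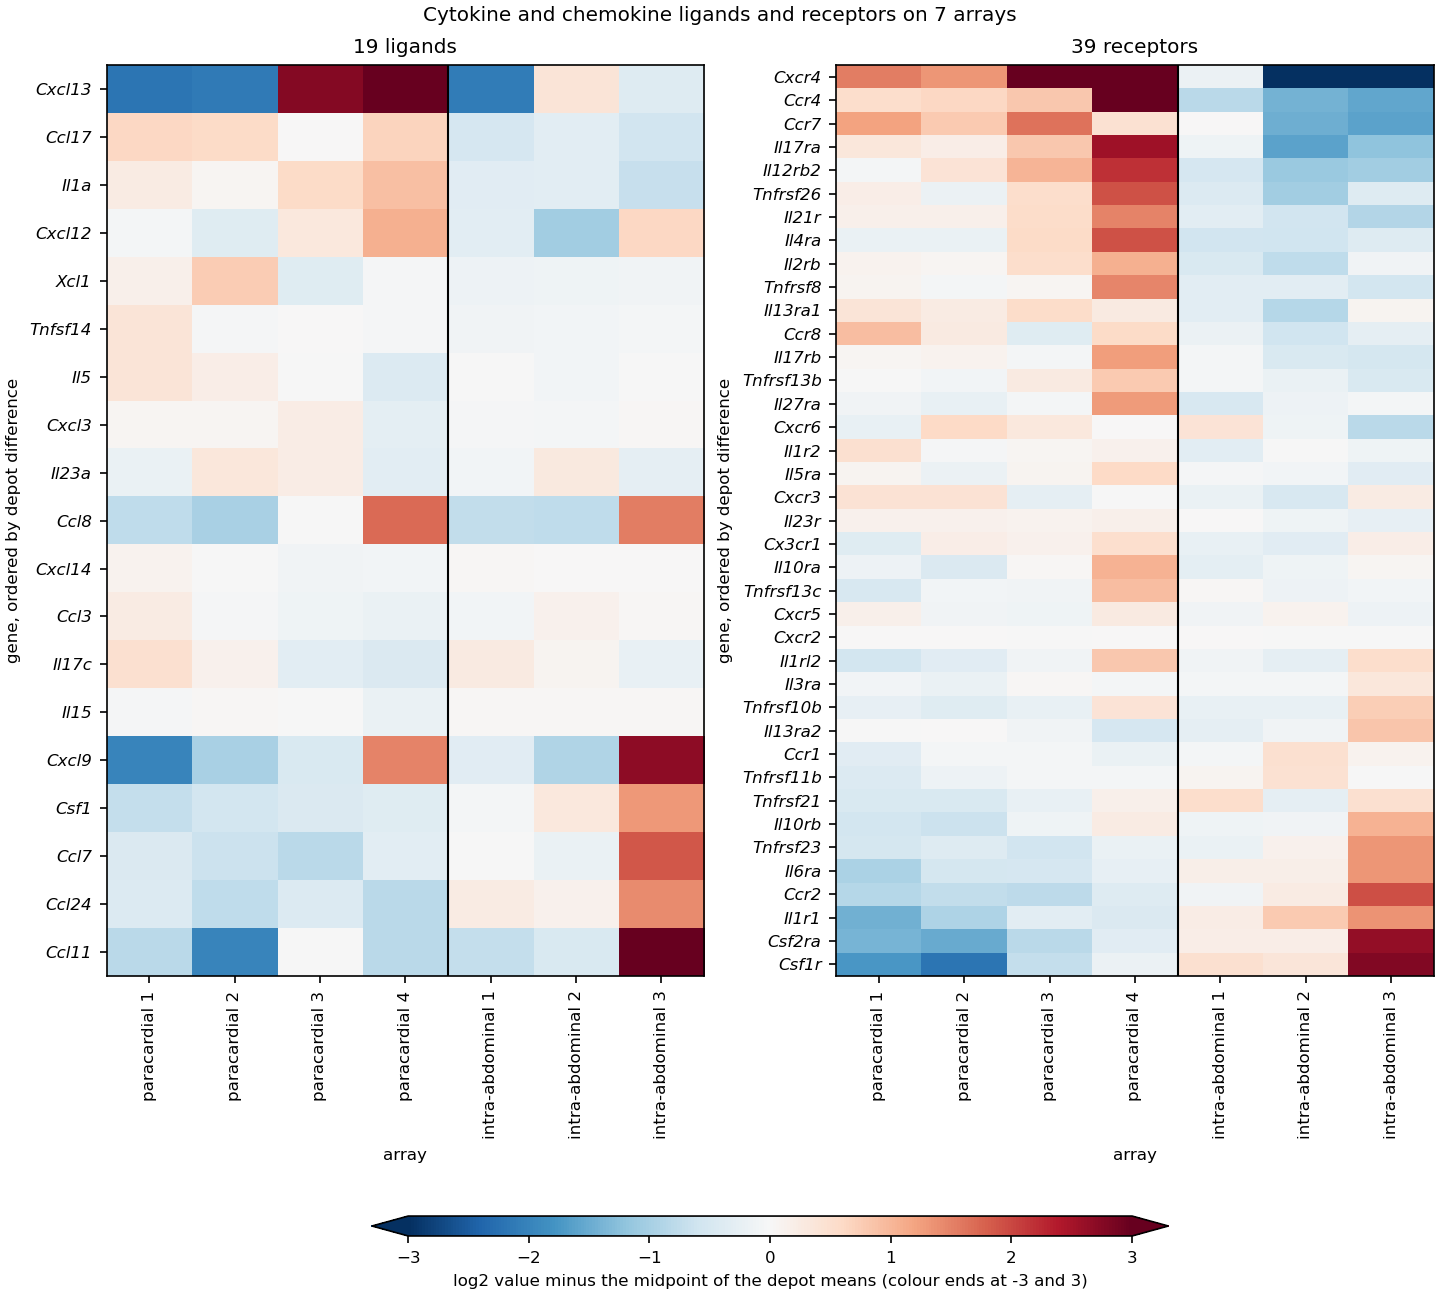
Each row is a gene and each column an array; colour gives the log2 value minus the midpoint of the gene's 2 depot means, with ligands left and receptors right, ordered by difference. Colours end at -3 and 3; paracardial array 4 is dark red for Ccr4, Il17ra and Il12rb2, and intra-abdominal array 3 for Csf1r, Csf2ra and Ccl11.

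**Figure D2:**
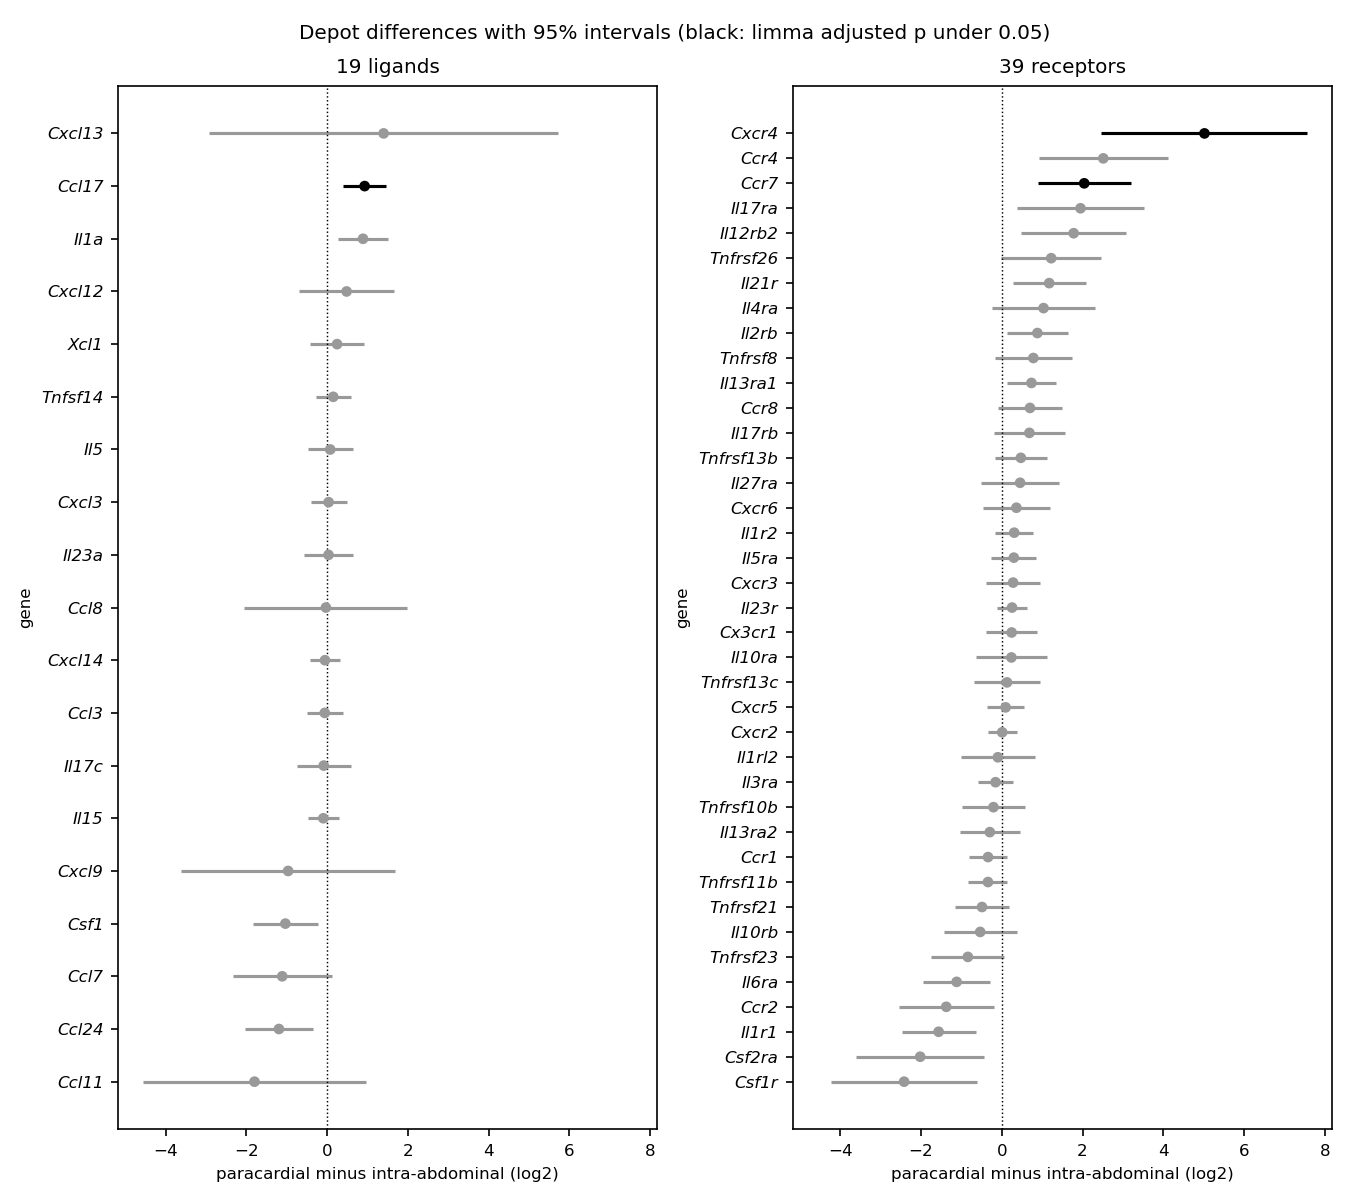
Points are the differences between depots in log2 units and lines their 95% intervals from limma, with 19 ligands left and 39 receptors right. The 3 black points, Ccl17, Ccr7 and Cxcr4, are the genes past the adjusted threshold, and all lie to the right of 0.

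Ccl17 was the ligand that passed. It encodes a CC chemokine, made mainly by dendritic cells and the thymus, that binds CCR4. Its log2 value was 6.53, 6.49, 5.92 and 6.57 in paracardial and 5.40, 5.58 and 5.35 in intra-abdominal fat. Array 3 was the low one of the paracardial arrays, yet it still lay above every intra-abdominal array. The mean was 6.38 ± 0.31 (SD, n = 4) in paracardial and 5.44 ± 0.12 (SD, n = 3) in intra-abdominal fat. The difference was 0.93 with a standard error of 0.22, a 95% interval of 0.40 to 1.46 and a limma adjusted p of 0.0499. A two-sided exact permutation test over all 35 splits of the arrays gave p = 0.0571. Leaving out paracardial array 3 kept Ccl17 past the threshold (adjusted p = 0.0473), whereas leaving out any other array gave 0.0814 to 0.137.

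Promoters are shown for Ccl17, for Cxcr4 and Ccr4, receptors with large positive differences, and for Csf1, a ligand whose values all lay on the other side, to set these groups of genes beside each other in sequence. Each is the RefSeq window of 300 bases, 250 before to 50 after the start of the gene, of build GRCm38.p6, read on the gene's own strand. Capitals mark a match, on either strand, to the NF-kB motif (GGGA and TTCC with 2 bases between), the STAT motif TTCNNNGAA (known as GAS) or the TATA box TATAAA.
Ccl17 promoter, chr8:94810203-94810502, plus strand: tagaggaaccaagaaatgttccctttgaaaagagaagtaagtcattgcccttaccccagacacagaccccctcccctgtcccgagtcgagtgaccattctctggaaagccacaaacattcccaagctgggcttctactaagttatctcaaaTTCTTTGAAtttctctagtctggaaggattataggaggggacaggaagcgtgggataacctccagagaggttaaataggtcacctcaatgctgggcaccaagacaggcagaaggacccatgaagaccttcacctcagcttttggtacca
Cxcr4 promoter, chr1:128592250-128592549, minus strand: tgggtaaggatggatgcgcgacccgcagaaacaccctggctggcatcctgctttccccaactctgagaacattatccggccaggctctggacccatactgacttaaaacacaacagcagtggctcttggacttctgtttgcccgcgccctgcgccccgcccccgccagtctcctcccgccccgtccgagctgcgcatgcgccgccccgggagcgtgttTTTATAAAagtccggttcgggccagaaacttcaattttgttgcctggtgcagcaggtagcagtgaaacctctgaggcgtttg
Ccr4 promoter, chr9:114496495-114496794, minus strand: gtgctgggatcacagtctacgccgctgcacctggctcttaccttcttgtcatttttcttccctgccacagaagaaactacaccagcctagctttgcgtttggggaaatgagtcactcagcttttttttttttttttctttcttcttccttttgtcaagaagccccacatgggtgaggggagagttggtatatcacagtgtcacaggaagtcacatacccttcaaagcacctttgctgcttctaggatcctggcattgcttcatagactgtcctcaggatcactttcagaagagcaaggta
Csf1 promoter, chr3:107760420-107760719, minus strand: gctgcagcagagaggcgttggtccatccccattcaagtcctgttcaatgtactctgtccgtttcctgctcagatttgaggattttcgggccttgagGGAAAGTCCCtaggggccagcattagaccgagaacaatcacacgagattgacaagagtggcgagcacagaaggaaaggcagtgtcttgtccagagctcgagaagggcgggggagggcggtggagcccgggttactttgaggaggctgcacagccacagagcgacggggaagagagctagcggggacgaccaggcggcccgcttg
Ccl17 held 1 GAS match, TTCTTTGAA, starting 99 bases before its start. Cxcr4 held TATAAA 30 bases before its start, overlapped by a match on the other strand 2 bases further out, so that the capitals cover both. Csf1 held 1 match to the NF-kB motif, on the other strand, starting 154 bases before its start. None of the 3 motifs was in the Ccr4 window. RefSeq windows were at hand for 42 of the 58 genes, 43 windows in all. Ccr7, which also passed the threshold, had no window at hand and is therefore not shown. The NF-kB motif was in 2 of the 43 (Csf1 and Cxcl3) and in 1.47% of all 32851 windows, GAS in 4 (Ccl17, Cxcl14, Il12rb2 and Il1r2) and 8.30%, and TATAAA in 10 and 13.6%. A match describes letters in a window and no site.

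The other ligands with the largest differences did not pass, and 4 of the 5 had negative differences. Csf1, the growth factor of macrophages, read 5.89, 6.06, 6.19 and 6.25 on the paracardial arrays and 6.56, 6.92 and 7.91 on the intra-abdominal arrays, a difference of -1.03 (SE 0.34, limma adjusted p = 0.116). Ccl24, a ligand of the eosinophil receptor CCR3, read 5.34, 4.99, 5.35 and 4.94 against 5.99, 5.89 and 7.17, a difference of -1.19 (SE 0.35, adjusted p = 0.0897). Ccl7, a monocyte attractant that binds CCR2, read 4.38, 4.18, 4.0 and 4.50 against 4.81, 4.62 and 6.69, a difference of -1.11 (SE 0.51, adjusted p = 0.248). Its values on paracardial arrays 1 to 3 lay under the 5th percentile of all probes there (4.43, 4.38 and 4.43). The depots did not overlap in any of these 3 genes, and intra-abdominal array 3 was the highest array in each.

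Ccl11, an eosinophil attractant that also binds CCR3, had values of 9.57, 8.41, 10.37 and 9.57 in paracardial and 9.67, 9.93 and 14.24 in intra-abdominal fat. The difference of -1.80 (SE 1.16, limma adjusted p = 0.416) was -0.32 without intra-abdominal array 3, the array that stood apart, and the depots overlapped. Cxcl13, the chemokine that draws B cells into follicles, had values of 6.44, 6.51, 11.38 and 13.00 against 6.53, 9.01 and 8.25. Paracardial arrays 3 and 4 lay above all others and arrays 1 and 2 below all of them, so its difference of 1.40 (SE 1.81, adjusted p = 0.695) was smaller than its spread. It turned to -1.43 with array weights and was 0.18 without paracardial array 4 and 4.26 without paracardial arrays 1 and 2.

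**Figure D3:**
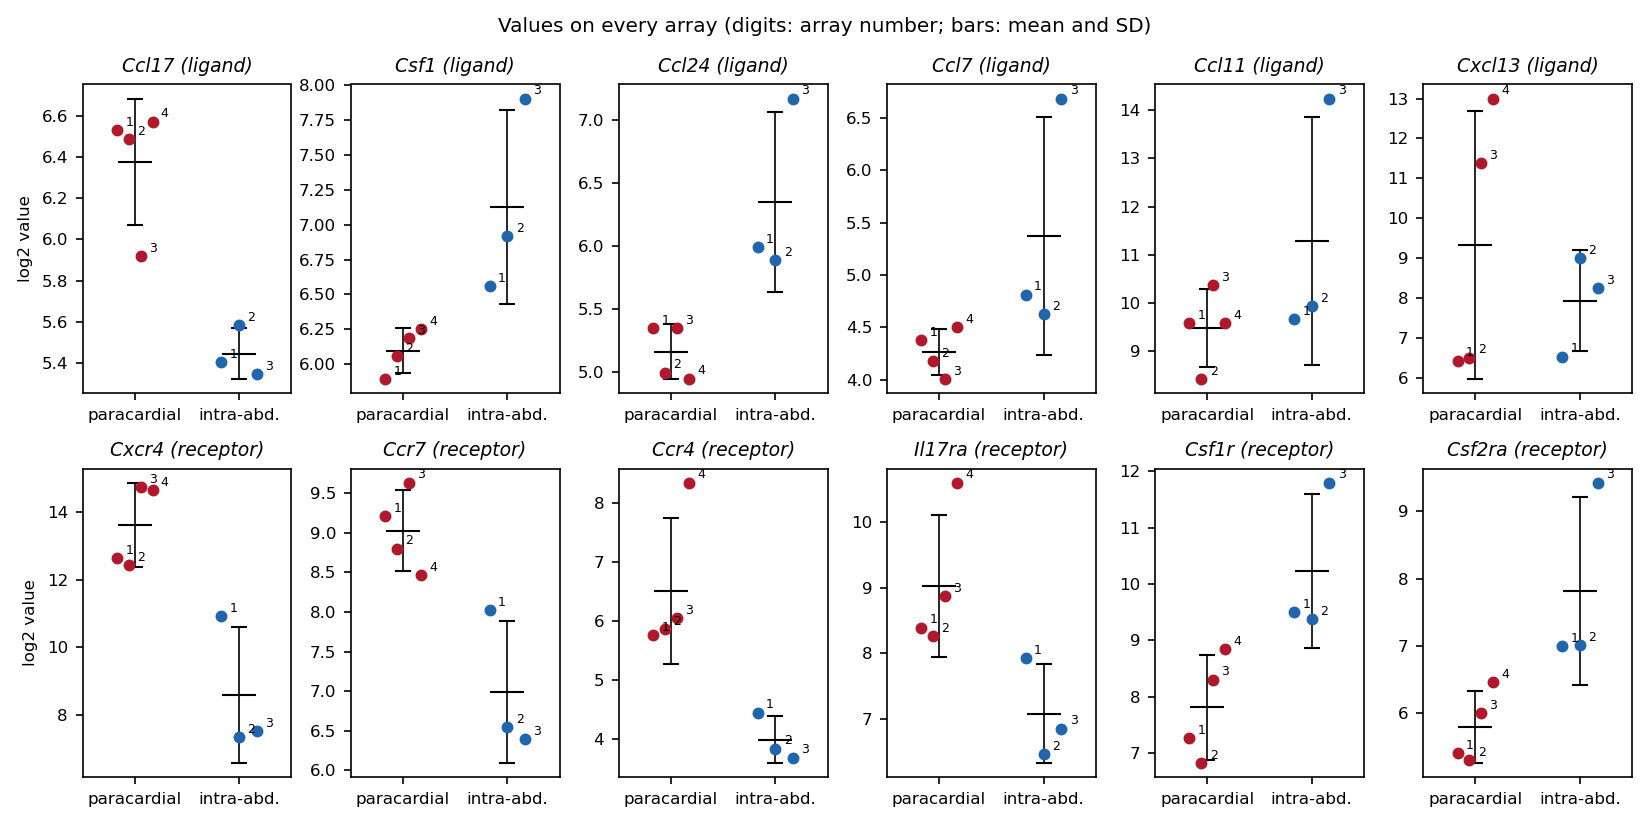
Points are log2 values of 12 genes on every array, red for paracardial and blue for intra-abdominal fat, numbered by array, with the mean and SD of each depot in black; each panel has its own scale. Cxcr4 ran from 12.43 to 14.74 in paracardial and from 7.34 to 10.92 in intra-abdominal fat, while Ccl11 and Cxcl13 overlapped between depots.

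Among the remaining ligands the largest differences belonged to Cxcl9 and Il1a. These and Cxcl12 and Ccl8 are given here after their values were seen. Il1a encodes interleukin-1 alpha, an alarm signal released by damaged cells. It read 5.06, 4.87, 5.37 and 5.70 on the paracardial arrays and 4.47, 4.49 and 4.11 on the intra-abdominal arrays, with no overlap and a difference of 0.89 (SE 0.25, limma adjusted p = 0.0818). Cxcl9, an interferon-induced attractant of T cells, read 6.0, 6.99, 7.51 and 9.46 against 7.62, 7.07 and 10.66. The arrays of the higher ceiling were the highest of each depot, and the difference of -0.96 turned to 0.14 without intra-abdominal array 3. Cxcl12, the stromal chemokine that retains CXCR4-bearing cells, read 6.79, 6.47, 7.16 and 7.91 against 6.53, 5.80 and 7.47, an overlap with a difference of 0.48 (adjusted p = 0.608). Ccl8, an attractant of monocytes, read 5.09, 4.87, 5.84 and 7.56 against 5.11, 5.10 and 7.39, which again put both arrays of the higher ceiling on top and left a difference of -0.028.

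The other 9 ligands had differences of -0.092 (Il15) to 0.25 (Xcl1). They were the chemokines Ccl3, Cxcl3, Cxcl14 and Xcl1, the interleukins Il5, Il15, Il17c and Il23a, and Tnfsf14, the TNF family ligand called LIGHT. Tnfsf14 values did not overlap, yet its difference was 0.15 (SE 0.18) and its adjusted p 0.665. Il15, a growth factor of NK and memory T cells, had the same value of 5.18 on all 3 intra-abdominal arrays and on paracardial array 2. Identical values on 2 or more arrays occurred in 17 of the 58 genes (29.3%) and in 19.0% of all genes, and limit what these genes can show.

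Cxcr4 had the largest difference of the 58. It encodes the CXCL12 receptor, which keeps developing lymphocytes and blood progenitors in place. Its log2 value was 12.64, 12.43, 14.74 and 14.65 in paracardial and 10.92, 7.34 and 7.52 in intra-abdominal fat. All paracardial arrays lay above all intra-abdominal arrays, and intra-abdominal array 1 stood above the other two of its depot. The mean was 13.62 ± 1.25 (SD, n = 4) against 8.6 ± 2.02 (SD, n = 3). The difference was 5.02 with a standard error of 1.07, a 95% interval of 2.47 to 7.57 and a limma adjusted p of 0.0354. The two-sided exact permutation p was 0.0286, as small as this design of 4 and 3 arrays allows. The difference was 4.14 among the 5 arrays of the lower ceiling and 7.13 between the 2 of the higher ceiling. Among the 5 arrays Cxcr4 did not pass (limma adjusted p = 0.145), nor did Ccr7 (0.105) or Ccl17 (0.118), while Ccr4 was higher and Ccr2 and Csf2ra were lower. In that fit 3 of the 58 genes passed, and 936 of all 9294 genes. The adjusted p of Cxcr4 was 0.0162 without intra-abdominal array 1 and 0.0657 to 0.137 without any of the other 6 arrays, so that it passed in 1 of 7 such fits.

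Ccr7, the receptor for CCL19 and CCL21 that guides naive T cells and dendritic cells into lymph nodes and thymocytes into the medulla, was also higher in paracardial fat. It read 9.21, 8.80, 9.64 and 8.47 on the paracardial arrays and 8.03, 6.54 and 6.39 on the intra-abdominal arrays, again with array 1 the highest of the intra-abdominal depot. The mean was 9.03 ± 0.51 (SD, n = 4) against 6.99 ± 0.90 (SD, n = 3). The difference was 2.04 with a standard error of 0.48, a 95% interval of 0.89 to 3.19 and a limma adjusted p of 0.0478. The exact permutation p was again 0.0286 (two-sided). In the sets of 5 and of 2 arrays the difference came to 1.93 (limma adjusted p = 0.105, not past the threshold) and 2.07. Its adjusted p was likewise under 0.05 when intra-abdominal array 1 was left out (0.0217) and ran from 0.0638 to 0.173 without each of the other 6 arrays.

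Ccr4, the CCL17 receptor of thymocytes and of T helper and regulatory T cells, had the second largest difference and did not pass. It read 5.76, 5.86, 6.04 and 8.34 on the paracardial arrays and 4.44, 3.83 and 3.68 on the intra-abdominal arrays. The 5th percentile of all probes was 4.44, 4.41 and 4.0 on those 3 intra-abdominal arrays. Ccr4 thus lay about at it on array 1 and under it on arrays 2 and 3, near the floor of the values. Array 4 stood above the other paracardial arrays, and the depots did not overlap. The difference was 2.51 (SE 0.67, limma adjusted p = 0.0670). Without paracardial array 4 it was 1.90 and passed (adjusted p = 0.0253).

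**Figure D4:**
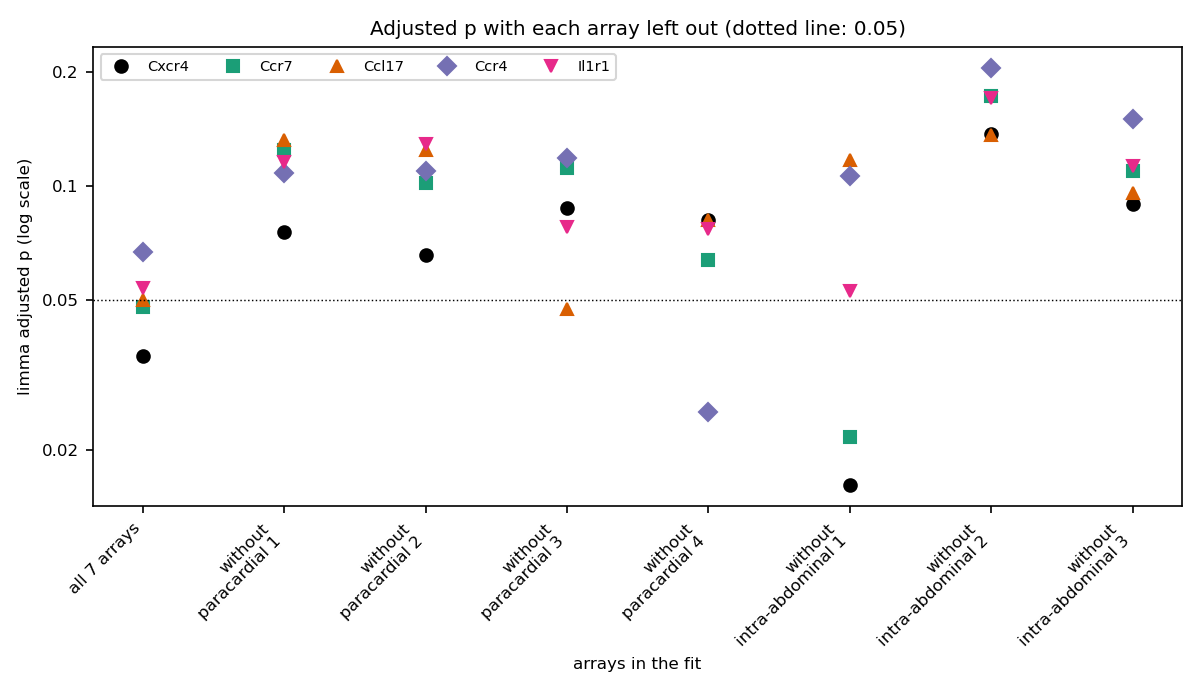
The vertical axis gives the limma adjusted p on a log scale for 5 genes, with all 7 arrays and with each array left out; the dotted line marks 0.05. Cxcr4 and Ccr7 lay under the line with all arrays and without intra-abdominal array 1, Ccl17 with all arrays and without paracardial array 3, Ccr4 without paracardial array 4, and Il1r1 in none of the 8 fits.

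Of the other 8 chemokine receptors, Ccr2, the receptor through which monocytes leave the marrow, had the largest difference and the only non-overlapping values, and was chosen after its values were seen. It read 5.52, 5.65, 5.60 and 6.0 on the paracardial arrays and 6.27, 6.62 and 8.31 on the intra-abdominal arrays, a difference of -1.37 (SE 0.49, limma adjusted p = 0.144). The order of the depots is the reverse of that for Cxcr4, Ccr7 and Ccr4, and intra-abdominal array 3 was the highest. The other 7 ranged from -0.34 (Ccr1, a receptor of CCL3) to 0.70 (Ccr8, a receptor of regulatory and helper T cells), with Cxcr2, Cxcr3, Cxcr5, Cxcr6 and Cx3cr1 between them.

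Of the 18 interleukin receptor genes none passed, while the depots did not overlap in 9, 7 with paracardial values above and 2 below (26.7% of all genes, 18.0% above and 8.78% below). The largest positive difference belonged to Il17ra, the shared chain of the IL-17 receptors. It read 8.39, 8.26, 8.87 and 10.61 on the paracardial arrays and 7.93, 6.46 and 6.85 on the intra-abdominal arrays, a difference of 1.95 (SE 0.66, limma adjusted p = 0.125). The gap between the depots was small at its edge (8.26 against 7.93), and paracardial array 4 was the highest array. The genes given next were chosen after their values were seen. Il12rb2, the signalling chain of the IL-12 receptor of Th1 cells, read 5.83, 6.31, 6.92 and 8.10 against 5.40, 4.77 and 4.84, a difference of 1.78 (SE 0.54, adjusted p = 0.0970). Il21r, the IL-21 receptor of lymphocytes, read 5.88, 5.88, 6.29 and 7.23 against 5.41, 5.16 and 4.86, a difference of 1.18 (SE 0.38, adjusted p = 0.110). Il2rb, the chain shared by the IL-2 and IL-15 receptors, differed by 0.88 (adjusted p = 0.143), Il4ra by 1.04 (0.302), Il13ra1 by 0.74 (0.136) and Il23r by 0.26 (0.397), all 4 without overlap.

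On the negative side, also chosen after their values were seen, were Il1r1, the signalling receptor of interleukin-1, and Il6ra, the binding chain of the IL-6 receptor. Il1r1 read 6.23, 6.76, 7.36 and 7.24 on the paracardial arrays and 7.89, 8.48 and 9.02 on the intra-abdominal arrays. Every paracardial array lay below every intra-abdominal array, and the difference was -1.56 (SE 0.38, 95% interval -2.48 to -0.65). Its limma adjusted p of 0.0538 was the smallest of those that missed the threshold, and it passed after quantile normalization (0.0237), after cyclic loess (0.0176) and after centring on array medians (0.0329). Il6ra read 5.11, 5.53, 5.55 and 5.83 against 6.23, 6.25 and 7.39, a difference of -1.12 (SE 0.35, adjusted p = 0.103). The other 9 interleukin receptor genes overlapped between depots and had differences from -0.53 (Il10rb) to 0.68 (Il17rb).

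Both receptors of colony-stimulating factors had negative differences without overlap. Csf1r, the CSF-1 receptor that macrophages need to survive, read 7.27, 6.82, 8.30 and 8.84 on the paracardial arrays and 9.51, 9.38 and 11.80 on the intra-abdominal arrays, a difference of -2.42 (SE 0.76, limma adjusted p = 0.103). Csf2ra, the binding chain of the GM-CSF receptor of myeloid cells, read 5.41, 5.30, 6.0 and 6.46 against 7.0, 7.01 and 9.43, a difference of -2.02 (SE 0.66, adjusted p = 0.117). In both genes arrays 3 and 4 were the higher paracardial arrays and array 3 the highest intra-abdominal array. Each of the 2 genes passed in 3 of its 21 alternatives and in 0 of the 7 fits with an array left out. In those 7 fits the limma adjusted p ran from 0.102 to 0.219 for Csf1r and from 0.115 to 0.240 for Csf2ra. With the array set as a block the adjusted p was 0.0210 for Csf1r and 0.0236 for Csf2ra, and Csf1, Ccr2, Il1r1 and Il6ra also passed, all 6 lower in paracardial fat. That fit put Ccr4 and Il2rb, both higher, beside Cxcr4, Ccr7 and Ccl17. In all, 11 of the 58 genes passed there, and 1654 of all 9294 genes.

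None of the 8 TNF receptor genes passed, and the depots did not overlap in 3, 2 with paracardial values above and 1 (Tnfrsf11b) below, where 26.7% of all genes did not overlap. Tnfrsf26, a neighbour of the TRAIL decoy receptor genes, read 6.64, 6.26, 6.96 and 8.36 on the paracardial arrays and 6.04, 5.39 and 6.06 on the intra-abdominal arrays, a difference of 1.22 (SE 0.52, limma adjusted p = 0.208). Tnfrsf8, picked with Tnfrsf26 on their values, encodes the lymphocyte activation antigen CD30. It read 5.76, 5.62, 5.74 and 7.15 against 5.37, 5.36 and 5.13, a difference of 0.78 (adjusted p = 0.303). Tnfrsf23, a TRAIL decoy receptor gene, differed by -0.84 (0.237) and Tnfrsf11b, the RANKL decoy osteoprotegerin, by -0.34 (0.370). The B cell receptors Tnfrsf13b (TACI) and Tnfrsf13c (BAFF receptor) differed by 0.47 and 0.13, the death receptors Tnfrsf10b and Tnfrsf21 by -0.21 and -0.49. Paracardial array 4 was the highest paracardial array for all 8, and also for 72.2% of the interleukin receptors and 44.1% of all genes.

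Ligands were then set beside receptors listed as their partners, 16 pairs with both genes measured. The list was a chosen one and need not hold every known pair, so the count depends on it. Of the 16 pairs 11 had differences of the same sign. Ccl17 and Ccr4 were both positive (0.93 and 2.51), as were Cxcl12 and Cxcr4 (0.48 and 5.02), though in each pair 1 gene passed. Csf1 and Csf1r were both negative (-1.03 and -2.42), as were Ccl7 and Ccr2 (-1.11 and -1.37). Il1a and its signalling receptor Il1r1 had opposite signs (0.89 and -1.56), while the decoy receptor Il1r2 differed by 0.31. Il15 and Il2rb differed by -0.092 and 0.88, and Cxcl9 and Cxcr3 by -0.96 and 0.28. Some pairs of the same sign had very small differences, such as Cxcl3 and Cxcr2 (0.038 and 0.011). Over all genes 5628 of 9294 differences were positive, so many pairs would share a sign in any case. Pairs share genes and arrays, so the count is a description.

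Several of the genes are neighbours on a chromosome, by their order in RefSeq. Il1r2, Il1r1 and Il1rl2 follow each other on chromosome 1 with no protein-coding gene between, and differed by 0.31, -1.56 and -0.096. Il12rb2 and Il23r on chromosome 6 differed by 1.78 and 0.26, and Il4ra and Il21r on chromosome 7 by 1.04 and 1.18. Tnfrsf26 and Tnfrsf23, with 1 gene between them on chromosome 7, differed by 1.22 and -0.84. Ccl7 and Ccl11, adjacent on chromosome 11, differed by -1.11 and -1.80. Neighbours thus had like differences in some clusters and unlike ones in others.

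Markers of other cell types were read on the same arrays. Beside Cxcr4, Ccr7, Ccr4 and Ccl17, the thymocyte markers averaged 10.90, 10.41, 11.45 and 12.92 in paracardial and 9.84, 7.73 and 7.29 in intra-abdominal fat, with 2 of 5 measured genes higher. Cd1d1, another of the 5, went the other way without overlap, at 6.01, 5.5, 6.09 and 7.37 against 8.03, 9.20 and 11.37 (-3.29, limma adjusted p = 0.0578). The T and NK cell markers (5 of 10 measured, 3 higher) averaged 7.96, 7.82, 8.76 and 10.23 against 6.78, 5.81 and 5.5, and the thymic epithelial markers (7 of 8 measured, 4 higher) 9.64, 9.46, 9.37 and 10.31 against 7.25, 6.07 and 5.30. Intra-abdominal array 1 was the highest of its depot for all 3 lists, as it was for Cxcr4, Ccr7 and Ccr4 but not for Ccl17 (5.40, 5.58 and 5.35). Over all genes that array was the highest of its depot in 36.6%. Foxn1, the factor that defines thymic epithelium, read 5.30, 5.20, 5.70 and 6.80 against 4.94, 4.81 and 4.36 and did not pass (limma adjusted p = 0.190). B cell markers (5 of 8 measured) averaged 6.22 to 8.10 against 5.44 to 6.03, with none past the threshold. The part of these cells in the result was not tested.

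Beside Csf1r, Csf2ra, Ccr2, Il1r1 and Csf1, the macrophage and dendritic cell markers without Csf1r (5 of 10 measured, none past the threshold) averaged 6.77, 6.90, 7.89 and 8.95 on the paracardial arrays and 7.66, 7.59 and 10.45 on the intra-abdominal arrays, so the depots overlapped. Adgre1 and Mrc1, markers of macrophages, were not analysed here. Endothelial and lymphatic markers (3 of 6 measured, all 3 lower) averaged 5.66, 5.46, 7.0 and 7.75 against 10.50, 11.13 and 12.90, and fibroblast markers (2 of 5 measured, none past the threshold) 6.66, 6.59, 8.64 and 9.41 against 9.99, 10.48 and 13.01. Of the 9 adipocyte markers 6 were lower. Granulocyte and mast cell markers (4 of 6 measured, none past the threshold) averaged 5.76 to 7.17 against 5.64 to 7.35. The only mesothelial marker measured, Msln, read 4.74 to 4.93 against 4.76 to 5.33. Which cells gave the signal of these receptors was not tested.

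**Figure D5:**
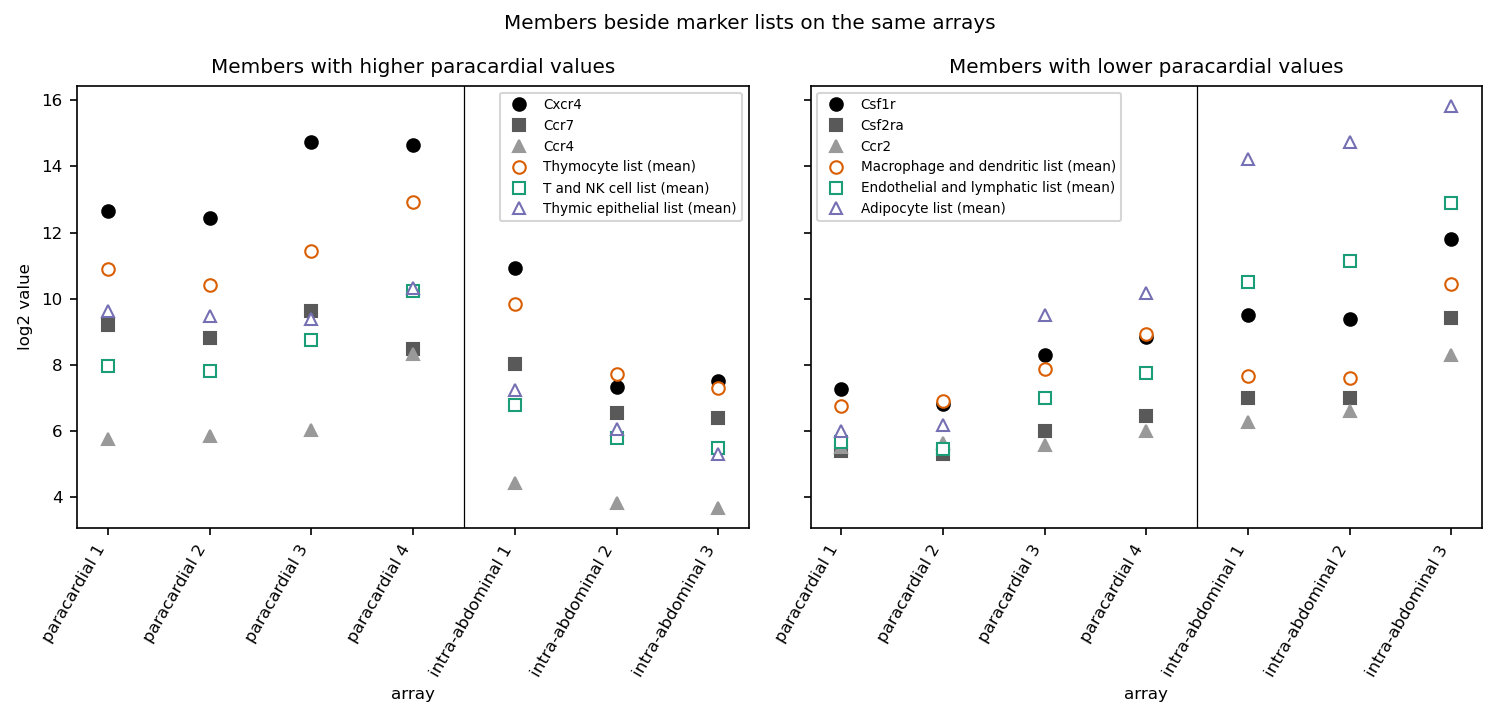
Filled symbols are log2 values of single genes and open symbols mean log2 values of marker lists on each of the 7 arrays, with genes of positive difference left and of negative difference right. Intra-abdominal array 1 was the highest of its depot for Cxcr4 (10.92) and for the thymocyte list (9.84), and intra-abdominal array 3 for Csf1r (11.80) and the macrophage list (10.45). Over all genes these arrays were the highest in 36.6% (array 1) and 46.4% (array 3).

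Other genes of these pathways were read from lists, which hold mostly signalling proteins inside the cell and also some ligands and receptors whose symbols lie outside the rule, Ltb, Fas, Ngfr, Relt, Eda2r and Xcr1 among them. Of 45 measured, 13 did not overlap with paracardial values above and 2 with paracardial values below, and none passed in either direction by limma, with 10 positive and 1 negative at an unadjusted p under 0.05. Over all genes 18.0% and 8.78% did not overlap in these directions, 9.16% passed, and 16.1% and 8.31% were at an unadjusted p under 0.05. The median difference was 0.19 against 0.13 over all genes. Of 7 JAK-STAT genes Stat4, the factor downstream of IL-12, had the largest difference (1.67, adjusted p = 0.183). Of 22 genes of TNF receptor and NF-kB signalling the largest differences were those of Tnfaip3 (1.72, 0.0738), a feedback inhibitor of NF-kB, Ltb (1.58, 0.206), which encodes the ligand lymphotoxin beta, and Nfkbia (1.51, 0.0621), another feedback inhibitor of NF-kB. Irak3, an inhibitor of interleukin-1 receptor signalling, led the 6 adaptor genes (-1.29, 0.0848). Of 10 genes of chemokine receptor signalling Rac2, a GTPase of blood cells, read 12.53, 12.20, 13.52 and 16.08 on the paracardial arrays and 11.07, 7.38 and 9.54 on the intra-abdominal arrays (4.25, adjusted p = 0.0781). The choice of these 6 genes followed their values.

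The genes varied within depots as well. Paracardial array 4 was the highest of its depot for 27 of 39 receptors (69.2%) and 8 of 19 ligands (42.1%), against 44.1% of all genes. Intra-abdominal array 3 was the highest of its depot for 29 of the 58 genes, against 46.4% of all genes. For 18 genes the sign of the difference changed in at least 1 of the 21 alternative fits, and 17 of these had a difference smaller than its standard error.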

How the data were processed

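The values deposited by the authors are log2 levels, 1 for each probe on each array. The submitters' processing notes name RMA and Affymetrix Expression Console. Their versions and settings, and a genome build, are not stated in what was used here, and the log2 scale is taken from the named method and the range of values. Scanner files were not used here, so detection above background is unknown. Precision is limited by the number of arrays.

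Of 11949 probes, 9352 had exactly 1 symbol in the platform annotation. Symbols were updated through Entrez identifiers (RefSeq, GRCm38.p6), changing 188. The probe with the highest mean was kept for 52 genes with several, leaving 9294 genes, and each of the 58 genes described had 1 probe. Symbols ending in -ps were left out. No filter on low values was applied. Dropping the dimmest 25% or 50% of genes would leave 36 or 18 of the 58.

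Depots were compared with lmFit and eBayes of limma 3.58.1 (R 4.3.3, two-sided) over all 7 arrays and genes, with no covariate, 5 residual and 1.68 prior degrees of freedom. Benjamini-Hochberg adjustment covered all genes (threshold 0.05), and intervals are at 95%. Exact permutation tests used all 35 splits. The script was tested on simulated data. Marker lists are means of log2 values over measured genes outside the 58.

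The genes, lists and tests were chosen with earlier results of these data known. Values on every array are given for genes past the threshold and, up to 6 per role, those with the largest differences; others so shown are named as chosen after their values were seen. Alternatives were filters on dim genes, 3 other scalings, trend and robust eBayes, array weights, the replicate number or array set as a block, other uses of probes, and left-out arrays. Leaving out paracardial arrays 1 and 2 was chosen after the data were seen. Python 3.11.15 with pandas 2.3.3, numpy 2.4.6 and matplotlib 3.10.9 did the rest.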

Additional observations from a re-analysis of the deposited data

Results flagged for a closer look

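Among the 4 paracardial arrays, 7 of the 58 genes (12.1%) had 1 array far from the other 3, by the gap to the nearest array as a share of the range, with a limit of 0.83. Chance flags about 1 in 20 such groups of independent, normally distributed values. The share over all genes was not computed, so whether 12.1% is an excess particular to the 58 cannot be judged. Paracardial array 4 was the highest of its depot for 44.1% of all genes. Array 4 was the high one for Tnfrsf8 (0.907, a gap of 1.39), Ccr4 (0.891, 2.30), Il27ra (0.885, 1.34) and Il17rb (0.874, 1.15). Array 3 was the low one for Ccl17 (0.870, 0.57). Array 1 was the high one for Tnfsf14 (0.864, 0.37) and array 2 for Cxcr2 (0.859, 0.022). The groups of 3 intra-abdominal arrays are too small for this rule.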

How the results depend on the processing

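Of the 58 genes 3 passed as reported. The count was 1 over all probes and 25 with array weights (15 higher and 10 lower, where 3614 of all genes passed). It was 11 when the array set was a block (5 higher and 6 lower, where 1654 of all genes passed). It was 0 without paracardial arrays 1 and 2 (13 at an unadjusted p under 0.05 by limma), where 1 of all genes passed. With the replicate number as a block it was 0 (16 at an unadjusted p under 0.05 by limma), where 0 of all genes passed. That fit takes paracardial array 4 out of the comparison. Counts of 0 in these 2 fits are therefore no trait of the 58 genes. The deviations of same-numbered arrays from their depot means had Pearson's r across genes of 0.048, 0.047 and -0.50. Large differences between the arrays of a depot enter these values, so they cannot settle whether the depots shared mice. With each array left out the count ran from 0 to 2, where 185 to 833 of all genes passed. For ligands (1 passed) it was 0 over all probes, over the mean of a gene's probes and with the replicate block. Quantile normalization, centring and cyclic loess also gave 0. So did the 5 arrays whose ceiling was lower, and the fit without paracardial arrays 1 and 2. With the dimmest 50% of genes dropped 0 of the 5 ligands kept passed, but Ccl17 was not in that fit. With the dimmest 25% dropped Ccl17 passed (limma adjusted p = 0.0462). The ligand count was 5 with array weights, 2 when the array set was a block, and 0 to 1 with each array left out. For receptors (2 passed) it was 1 with trend and robust fitting, 1 over all probes, 20 with array weights, 9 when the array set was a block, 0 with the replicate block and without paracardial arrays 1 and 2, and 0 to 2 with each array left out. For pathway genes (0 passed) it was 1 with the dimmest 50% dropped (Nfkbia), 2 after quantile normalization, 3 after cyclic loess, 19 with array weights, 5 when the array set was a block and 2 among the 5 arrays whose ceiling was lower, and 0 to 2 with each array left out. Over its 21 alternatives Cxcr4 passed in 12, with adjusted p from 0.00240 to 0.153; Ccr7 passed in 7 of 21 (0.00146 to 0.218) and Ccl17 in 6 of 20 (0.00296 to 0.258). Other scalings moved the calls: after quantile normalization 2 genes were higher (Ccr4 and Cxcr4) and 1 lower (Il1r1), and after cyclic loess 1 was higher (Cxcr4) and 2 were lower (Csf1r and Il1r1). The median of all genes was 0.13 as deposited and -0.0052 after centring. Cxcr3, at 0.28, turned to -0.0073 without paracardial arrays 1 and 2. The cause of these changes was not tested. The differences of Cxcr4, Ccr7, Ccl17, Ccr4, Il1r1, Csf1r, Csf2ra, Ccr2, Csf1 and Il6ra kept their sign in every alternative that held them.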

Other observations

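Of the 58 genes 5 had one and the same value on 3 or more arrays. These were Il15 (5.18 on 4 arrays), Cxcr2 (5.09 on 3), Il5 (4.64 on 3), Ccr1 (4.51 on 3) and Tnfrsf10b (4.45 on 3). In all, 663 of 9294 genes shared a value on 3 or more arrays.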
